A study of Mus musculus with 12 samples.

Results

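The Fc receptor genes described here were the 4 mouse genes for the ligand-binding chains of the receptors for immunoglobulin G (IgG), Fcgr1, Fcgr2b, Fcgr3 and Fcgr4, and Fcer1g, the gene for the signalling chain that the activating receptors among them share. They were chosen by symbol, and all 5 were found among the 28987 genes listed for 12 neutrophil RNA libraries. Neutrophils came from FVB mice that had received 2 mL thioglycollate, an irritant that draws neutrophils into the peritoneum. The 4 groups of 3 libraries were bone marrow (BM) neutrophils of wild-type (WT) mice, peritoneal (PT) neutrophils of WT mice, and the BM and PT neutrophils of MRP8-Bcl2 mice (BM Bcl2 and PT Bcl2 below). MRP8-Bcl2 mice carry human Bcl-2 behind the regulatory region of MRP8, a myeloid gene, so that their neutrophils resist programmed cell death. The thioglycollate was given in all 4 groups, so no group stands for an unstimulated mouse. The labels place collection 6 h after the injection and name macrophages as the source, whereas the methods give 4 or 8 h and neutrophils sorted by flow cytometry as CD11b+ F4/80- GR1++ cells. Libraries are named by the numbers in the deposited column names: 1 to 3 are BM Bcl2, 4 to 6 BM WT, 7 to 9 PT Bcl2 and 10 to 12 PT WT.

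Fc receptors let cells that carry no antigen receptor of their own act on antibody. When IgG on a particle clusters the activating receptors FcγRI (Fcgr1), FcγRIII (Fcgr3) and FcγRIV (Fcgr4), Src family kinases phosphorylate the tyrosine motif (ITAM) of the FcRγ chain (Fcer1g), Syk binds it, and phagocytosis, oxidant release and degranulation follow. FcγRIIB (Fcgr2b) has an inhibitory motif in its own tail that recruits the phosphatase SHIP1 (Inpp5d) and sets a threshold for the others. In mouse neutrophils FcγRIII and FcγRIV are the receptors best known for binding immune complexes, FcγRI is best known from monocytes, macrophages and dendritic cells, and FcγRIIB is also the Fc receptor of B cells.

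On GRCm38, Fcgr2b (chr1:170958617-170976547, minus strand), Fcgr4 (chr1:171018920-171029761, plus strand), Fcgr3 (chr1:171051174-171064935, minus strand) and Fcer1g (chr1:171229572-171234365, minus strand) lie close together on chromosome 1. Fcgr1 (chr3:96282909-96293969, minus strand) lies apart on chromosome 3. Fcgr2b and Fcgr3 are near copies. Their longest coding sequences, aligned as a whole, matched at 83.93% of 784 aligned bases, whereas the other pairs of ligand-binding chains matched at 58.57 to 63.46%. The longest coding stretch that Fcgr2b and Fcgr3 share without a mismatch is 129 bases, at coding positions 278 to 406 of Fcgr2b (chr1:170966674-170968081, across an intron) and 263 to 391 of Fcgr3 (chr1:171054167-171057792, across an intron). It is shown because short reads inside it cannot be assigned to either gene:
Fcgr2b and Fcgr3: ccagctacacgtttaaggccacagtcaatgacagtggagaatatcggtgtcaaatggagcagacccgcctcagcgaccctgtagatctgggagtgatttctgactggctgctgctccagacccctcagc

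Of all stretches of 31 bases in the annotated transcripts of Fcgr3, 13.445% also occurred in another gene, in each case Fcgr2b. For Fcgr2b the share was 8.148%, and 4.154% occurred in Fcgr3. It was 1.387% for Fcgr4, while Fcgr1 and Fcer1g shared none. The values of Fcgr2b and Fcgr3 are therefore uncertain to the extent that reads of the shared part were divided between them, and their sum was tested beside each of them.

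Both strands were searched for GAGGAA, the core bound by the myeloid factor PU.1, TTNNGNAA, a loose C/EBP pattern, and GGGANTTCC, a strict NF-kB pattern. The search covered the 250 bases before the RefSeq start of each gene (GRCm38.p6, 5 of 5 genes matched). They are shown for Fcgr1, Fcgr3 and Fcgr4, the genes with a PU.1 core there, with that core in capitals (chr3:96293970-96294219, chr1:171059404-171059653 and chr1:171018676-171018925, each 5′ to 3′ on the strand of its gene):
Fcgr1: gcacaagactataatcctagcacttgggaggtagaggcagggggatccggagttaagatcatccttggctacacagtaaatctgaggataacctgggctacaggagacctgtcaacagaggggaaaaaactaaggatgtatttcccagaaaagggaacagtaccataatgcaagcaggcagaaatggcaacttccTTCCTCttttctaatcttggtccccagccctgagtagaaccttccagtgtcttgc
Fcgr3: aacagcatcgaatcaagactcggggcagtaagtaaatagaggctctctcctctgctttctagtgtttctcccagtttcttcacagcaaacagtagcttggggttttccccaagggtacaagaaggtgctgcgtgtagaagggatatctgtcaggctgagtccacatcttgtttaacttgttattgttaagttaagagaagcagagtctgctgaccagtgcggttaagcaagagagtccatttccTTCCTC
Fcgr4: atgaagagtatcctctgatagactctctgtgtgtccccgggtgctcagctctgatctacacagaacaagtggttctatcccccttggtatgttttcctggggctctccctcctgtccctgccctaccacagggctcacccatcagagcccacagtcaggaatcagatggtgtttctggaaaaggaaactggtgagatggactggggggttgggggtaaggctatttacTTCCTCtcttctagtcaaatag

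All 3 cores read TTCCTC on the strand shown. Counted from the start, they begin at −55 in Fcgr1, −6 in Fcgr3 and −22 in Fcgr4. Of 32851 promoter windows of the same length, 23.253% held the PU.1 core. The C/EBP pattern, which 36.845% of windows held, was found at −146 and −28 in Fcgr3 and at −78 in Fcgr4. The strict NF-kB pattern, held by 1.431% of windows, was found in none of the 5. Other forms of the NF-kB site were not searched. The windows of Fcgr2b and Fcer1g held none of the 3 patterns. Of the 250 bases of the Fcgr2b window, 187 lie in annotated exons, since the gene model extends beyond the RefSeq start, against at most 27 in the other windows. The Fcgr3 model also extends beyond its RefSeq start. The windows of Fcgr2b and Fcgr3 thus lie inside the annotated genes, which reach chr1:170976547 and chr1:171064935. These matches are letters in a window and are not measured binding sites.

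The deposited values are on the scale log2(TPM + 1). TPM divides the reads of a gene by its length and sets every library to a common total, so levels of different genes can be compared, but read totals are lost. Between 9735 and 14305 genes were above 0 in a library. Of 8 neutrophil markers, 7 were above 0 in all 12 libraries, and in the mean of both genotypes 1 was called higher in PT and 3 lower. S100a8 was at 38874 to 153516 TPM in BM and 4495 to 27252 TPM in PT. Ly6g, which encodes an antigen of the GR1 sort, was at 971 ± 347 TPM in BM WT and 9.36 ± 8.15 TPM in PT WT, and at 493 ± 638 and 81.7 ± 38.1 TPM in BM and PT of MRP8-Bcl2 mice (SD, n = 3), with 1 library at 0. Adgre1, which encodes F4/80, was at most 18.5 TPM in any library. Bcl2 as listed, to which reads of the human transgene can map, was at 58.6 to 333 TPM in 5 of the 6 MRP8-Bcl2 libraries, but at 0.695 TPM in the library labelled PT Bcl2 with number 9, inside the range of 0.219 to 2.37 TPM in the WT libraries. A set of 108 genes with long runs of A or T took 50.8 to 65.6% of the TPM in PT libraries 8 to 11, but 15.5% in PT library 7 and 19.96% in PT library 12, and 8.93 to 24.1% in BM, which lowers the TPM of every other gene in libraries 8 to 11. No Fc receptor gene has such a run. The methods take both tissues from each mouse, so BM and PT libraries of a genotype probably share mice, but the columns do not say which, and BM and PT were tested as independent. P-values measure the spread between libraries.

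Groups were compared with limma on 13456 genes, with Benjamini-Hochberg adjusted p-values, and calls needed both an adjusted p under 0.05 and a 2-fold or larger change. Of the 5 Fc receptor genes, Fcgr2b alone was called. It was higher in PT than in BM, 2.76-fold as the mean of both genotypes (log2 change 1.47, SE 0.40, adjusted p = 0.0197). Fcgr3 was 2.11-fold higher and just missed the threshold (log2 change 1.08, SE 0.37, adjusted p = 0.0535), which it passed without library 5 (adjusted p = 0.0414). In this comparison 5.13% of all tested genes were called higher and 14.1% lower. Within WT and within MRP8-Bcl2 alone, 0 of the 5 genes were called. There 1.59% of genes were called higher and 1.22% lower in WT, and 2.31% and 19.1% in MRP8-Bcl2. At an unadjusted p under 0.05, PT exceeded BM for 1 of the 5 in WT (10.2% of all genes), 3 in MRP8-Bcl2 (4.53%) and 2 in the mean (9.59%).

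The median change of all tested genes from BM to PT was itself 0.22 in WT, −1.02 in MRP8-Bcl2 and −0.40 in their mean on the log2 scale. The median change of the 5 Fc receptor genes was 0.99, 1.17 and 0.78. Less the median of all genes, the mean change of both genotypes was 1.86 for Fcgr2b, 1.47 for Fcgr3, 1.17 for Fcer1g, 0.80 for Fcgr4 and 0.60 for Fcgr1. All of these are changes in a share of the RNA of a cell population. A change in the number of expressing cells and a change in RNA per cell therefore cannot be told apart.

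**Figure D1:**
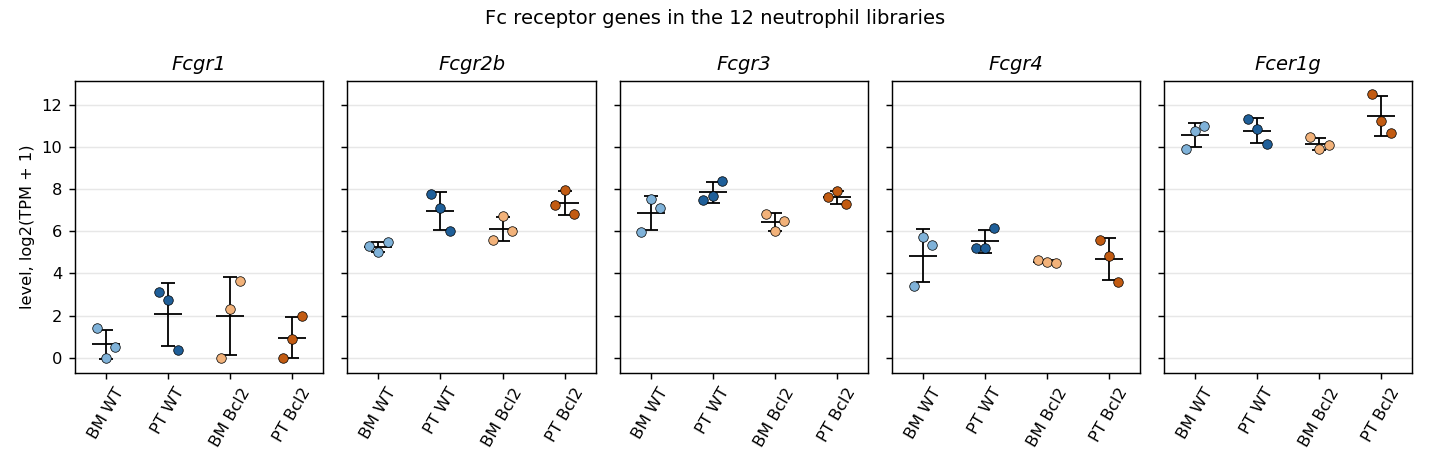
Level of each Fc receptor gene in log2(TPM + 1), 1 point per library and 3 libraries per group, with the group mean (long bar) and SD (whiskers). Fcer1g lies highest and Fcgr1 lowest in every group, and Fcgr2b in PT WT and PT Bcl2 lies above BM of the same genotype in every library.

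The levels of the 5 genes kept 1 order in all 4 groups: Fcer1g, Fcgr3, Fcgr2b, Fcgr4 and Fcgr1, from highest to lowest group mean in TPM. Fcer1g stood far above the ligand-binding chains, with a group mean 7.74 to 16.7 times that of Fcgr3, and its level stood at percentiles 99.5 to 99.9 of the tested genes in every library. Fcgr3 and Fcgr2b overlapped in their library ranges in PT WT, BM Bcl2 and PT Bcl2, and Fcgr2b and Fcgr4 in BM WT and PT WT. The other neighbours in this order did not overlap.

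Fcgr2b, the inhibitory receptor, was at 38.6, 31.6 and 44.0 TPM in BM WT libraries 4, 5 and 6, and at 216, 138 and 62.9 TPM in PT WT libraries 10, 11 and 12. All 3 PT WT libraries lay above all 3 BM WT libraries, with library 12 nearest to them. The log2 change was 1.68 (SE 0.57, 95% interval 0.48 to 2.89, adjusted p = 0.136). In MRP8-Bcl2, Fcgr2b was at 47.1, 104 and 63.5 TPM in BM libraries 1, 2 and 3, and at 150, 252 and 113 TPM in PT libraries 7, 8 and 9. Here too the ranges did not overlap, with BM library 2 close under PT library 9. The log2 change was 1.25 (SE 0.57, 95% interval 0.04 to 2.45, adjusted p = 0.122). Ranges did not overlap with PT higher for 14.9% of all tested genes in WT and 5.18% in MRP8-Bcl2. The change in both genotypes together had a 95% interval of 0.62 to 2.32 and lay above that of 93.1% of tested genes. Without library 10, the WT library with the most Fcgr2b, it was 1.27 and no longer called (adjusted p = 0.0600). The MRP8-Bcl2 change was 2.84 and called once the library medians had been set equal, termed centring here (adjusted p = 0.0167). Without the PT libraries 7 and 12, the WT change was 2.17 and called (adjusted p = 0.0477). Fcgr2b and Fcgr3 summed as 1 gene changed by 1.21 in the mean of both genotypes and were called (adjusted p = 0.0167).

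B cells carry Fcgr2b as their Fc receptor, and some of their marker genes were also called higher in PT. Over all tested genes, 5.13% were called higher in PT and 14.1% lower in the mean of both genotypes. Of 8 B cell markers, all tested, 3 were called higher in PT in the mean of both genotypes and 0 lower, among them Ms4a1 by 2.01 (adjusted p = 0.0334) and Ighm by 2.76 (adjusted p = 0.00315). Their sum lay between 94.4 and 295 TPM in the BM and between 669 and 1533 TPM in the PT libraries of WT mice, and between 41.3 and 270 and between 272 and 859 TPM in those of MRP8-Bcl2 mice, and 6 of the 8 were above 0 in all 12 libraries. Without Ighm, the immunoglobulin heavy chain, these 4 ranges were 35.4 to 106, 115 to 330, 26.1 to 119 and 67.8 to 163 TPM. Pax5 was the only 1 of the 8 that was lower in PT in the mean, with a log2 change of −0.62 (adjusted p = 0.494). In MRP8-Bcl2, Pax5 changed by −2.14 (adjusted p = 0.0828) and Cd79b by −0.50 (adjusted p = 0.741), and the other markers were higher in PT. Ighm alone kept its call in the mean under every alternative. Ms4a1 lost it without library 2, 3, 4, 6, 7, 10, 11 or 12, and the count of called markers was 1 without library 2, 3, 4, 6, 7 or 12, and without libraries 7 and 12 together. Among the PT libraries, the sum without Ighm was highest in library 12, at 330 TPM, where Fcgr2b was lowest, and lowest in library 8, at 67.8 TPM, where Fcgr2b was highest. In PT libraries 9, 11, 10 and 7 this sum was 71.0, 115, 129 and 163 TPM. Fcgr2b was at 113, 138, 216 and 150 TPM there, in the same order. The part of B cells in the level of Fcgr2b was not tested.

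Fcgr3, an activating receptor of immune complexes, was at 61.4, 188 and 136 TPM in BM WT against 176, 207 and 339 TPM in PT WT, in the same order of libraries. BM library 5 lay inside the PT range, so the groups overlapped, and the log2 change was 0.99 (SE 0.52, 95% interval −0.13 to 2.10, adjusted p = 0.363). In MRP8-Bcl2 it was at 113, 63.0 and 88.8 TPM in BM and 198, 241 and 154 TPM in PT. These ranges did not overlap, and the log2 change was 1.17 (SE 0.52, 95% interval 0.06 to 2.28, adjusted p = 0.118). Fcgr3 was called in MRP8-Bcl2 and in the mean of both genotypes with this centring, and when the genes with long A or T runs were left out (adjusted p = 0.0135 and 0.0150 with centring, 0.0282 and 0.00547 without those genes).

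Fcer1g, the shared ITAM chain, was at 964, 1765 and 2027 TPM in BM WT against 2597, 1862 and 1132 TPM in PT WT. The groups overlapped, PT library 12 being second lowest of the 6, and the log2 change was 0.22 (SE 0.52, 95% interval −0.89 to 1.33, adjusted p = 0.875). In MRP8-Bcl2 it was at 1414, 947 and 1089 TPM in BM and at 5827, 2430 and 1649 TPM in PT. All 3 PT libraries lay above BM, library 7 by far the highest of the 12, and the log2 change was 1.33 (SE 0.52, 95% interval 0.22 to 2.44, adjusted p = 0.0794). The MRP8-Bcl2 change was called with centring (2.92, adjusted p = 0.0187) and without the long-run genes (2.08, adjusted p = 0.0122). It was also called without library 9, the library with little Bcl2 (1.73, adjusted p = 0.0474). With 1 library left out, the limma change ranged from 0.82, without library 7, to 1.73. The adjusted p ranged from 0.0474 to 0.258 over these fits.

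Fcgr4, the activating receptor encoded between Fcgr2b and Fcgr3, was at 9.69, 52.9 and 40.4 TPM in BM WT against 35.9, 35.9 and 69.8 TPM in PT WT. In MRP8-Bcl2 it was at 23.7, 22.3 and 21.8 TPM in BM and 47.9, 27.4 and 11.3 TPM in PT. The groups overlapped in both genotypes, and PT Bcl2 spread widely around a tight BM Bcl2 group. The log2 change was 0.67 in WT (95% interval −0.82 to 2.17, adjusted p = 0.686) and 0.13 with the transgene (95% interval −1.37 to 1.62, adjusted p = 0.912), and these intervals hold changes of over 2-fold.

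Fcgr1, the high-affinity receptor, was close to the limit of the measurement. In WT its TPM values were 1.62, 0 and 0.417 in BM against 7.60, 5.73 and 0.276 in PT. In MRP8-Bcl2 they were 0, 4.02 and 11.3 in BM against 0, 0.872 and 2.92 in PT. It was listed at 0 in 3 of the 12 libraries, in 3 different groups, and every pair of groups overlapped. The log2 change was 1.44 in WT (95% interval −0.62 to 3.499, adjusted p = 0.492) and −1.02 with the transgene (95% interval −3.09 to 1.04, adjusted p = 0.464). The MRP8-Bcl2 change equalled the median of all genes (−0.01 after subtracting it), and its sign turned to 0.57 with centring and to 0.29 with quantile normalization.

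**Figure D2:**
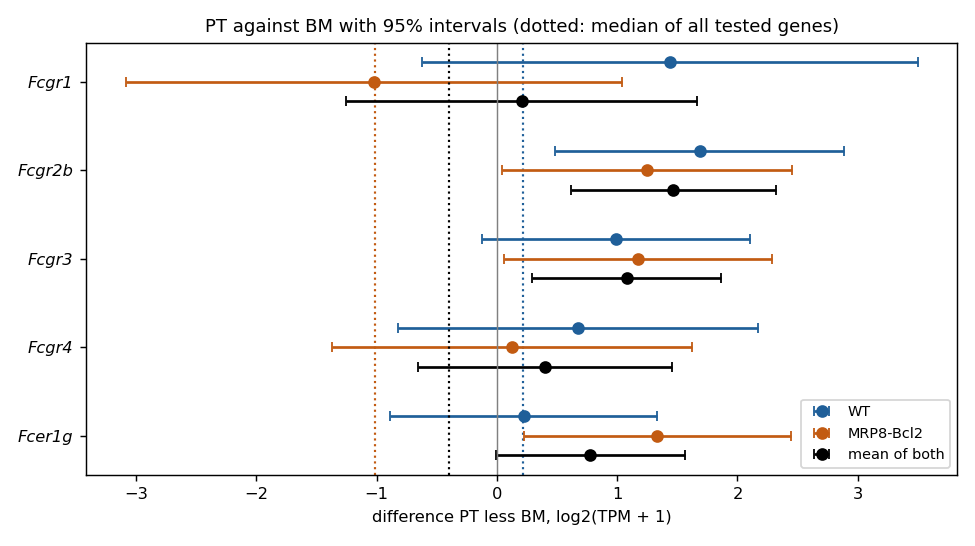
Difference of PT less BM in log2(TPM + 1) for each gene (points) with 95% intervals (bars) from limma, in WT, in MRP8-Bcl2 and as the mean of both. Dotted lines mark the median of all 13456 tested genes, at 0.22, −1.02 and −0.40, and the intervals of Fcgr2b exclude 0 in all 3 comparisons.

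The change from BM to PT could not be told apart between the genotypes. The MRP8-Bcl2 change less the WT change was −2.46 for Fcgr1 (SE 1.37, adjusted p = 0.359), 1.11 for Fcer1g (SE 0.74, adjusted p = 0.429), −0.55 for Fcgr4, −0.44 for Fcgr2b and 0.18 for Fcgr3. The median over all genes was −1.18. Here 0 of the 5 were called or had an unadjusted p under 0.05, against 0.0149% of all genes called and 16.9% under an unadjusted p of 0.05.

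Between the genotypes at 1 site, 0 of the 5 genes were called, against 0.0223% of all genes in BM and 0.0297% in PT, and 0 of the 5 had an unadjusted p under 0.05 (7.36% and 12.7% of all genes). Fcgr2b was higher in each BM Bcl2 library (47.1 to 104 TPM) than in any BM WT library (31.6 to 44.0 TPM), as were 10% of all tested genes. Its log2 difference was 0.83 (SE 0.57, 95% interval −0.38 to 2.03, adjusted p = 0.727), or 0.34 above the median difference of all genes. The other 4 genes overlapped between the genotypes in BM, and all 5 overlapped in PT, where the log2 differences ran from −1.11 for Fcgr1 to 0.70 for Fcer1g.

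The 4 ligand-binding chains summed to 111 to 272 TPM in BM WT and 387 to 472 TPM in PT WT. In MRP8-Bcl2 they summed to 184 to 193 TPM in BM and 281 to 521 TPM in PT. The ranges did not overlap in either genotype, as for 14.9% of single tested genes with PT higher in WT and 5.18% in MRP8-Bcl2. This sum depends on the scaling between libraries. To compare the receptors without that scaling, their proportions of the sum within each library were taken. Fcgr2b made up 34.7, 11.6 and 19.97% of that sum in BM WT and 49.7, 35.6 and 13.3% in PT WT. In MRP8-Bcl2 it made up 25.6, 53.8 and 34.2% in BM and 37.9, 48.3 and 40.2% in PT. Fcgr2b exceeded Fcgr3 in PT WT library 10, BM Bcl2 library 2 and PT Bcl2 library 8, and Fcgr3 led in the other 9 libraries. The activating chains together exceeded Fcgr2b in every library but BM Bcl2 library 2, where the ratio was 0.860, and reached 7.61 times Fcgr2b in BM WT library 5.

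**Figure D3:**
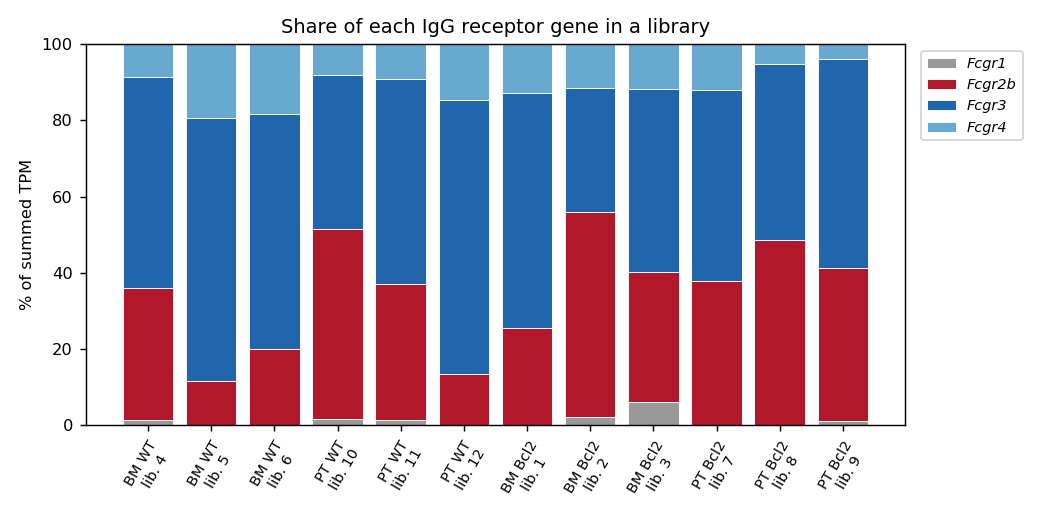
Share of the summed TPM of the 4 ligand-binding chains that each gene took, in percent, with 1 bar per library. Fcgr3 and Fcgr2b fill most of every bar, Fcgr1 at most 6.09%, and the Fcgr2b share overlaps between BM and PT in both genotypes.

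The within-library ratios were tested by an exact permutation test that exchanged BM and PT labels within each genotype (2-sided, 400 arrangements, smallest possible p = 0.005, adjusted over 4 ratios). The log2 ratio of Fcgr4 to Fcgr2b differed by −1.07 between PT and BM (exact p = 0.11, adjusted p = 0.23), that of Fcgr1 to Fcgr2b by −1.26 (exact p = 0.115, adjusted p = 0.23) and that of Fcgr3 to Fcgr2b by −0.39 (exact p = 0.475, adjusted p = 0.63). For these tests, 1 TPM was added to both levels of each ratio. In the 3 libraries with Fcgr1 at 0, its ratio to Fcgr2b therefore gave the level of Fcgr2b alone. The ratio of the summed activating chains to Fcer1g differed by 0.18 (exact p = 0.63, adjusted p = 0.63). The permutation test called 0 of these 4 ratios, also at an unadjusted p under 0.05. Fcer1g was at 2.77 times the activating chains in PT WT library 12, at 23.7 times in PT Bcl2 library 7, and at 7.34 to 13.3 times in the other 10 libraries.

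The other genes of Fc receptor signalling were taken from a list of 97 genes, of which 84 were tested. In PT against BM, 1.59% of all tested genes were called higher and 1.22% lower in WT. The shares were 2.31% and 19.1% in MRP8-Bcl2, and 5.13% and 14.1% in the mean of both. They also apply beside the counts for the gene groups below. Of the 84 genes, 4 were called higher and 0 lower in WT, 9 higher and 8 lower in MRP8-Bcl2, and 14 higher and 10 lower in the mean of both. Their median change was 0.36, −0.18 and 0.11, against 0.22, −1.02 and −0.40 over all tested genes. The split in the mean moved with the scaling, to 25 higher and 2 lower with median centring and to 25 higher and 1 lower without the long-run genes. Without libraries 7 and 12 it was 10 higher and 13 lower. With 1 library left out, the calls in WT ranged from 1 higher (without library 10) to 4, and those in MRP8-Bcl2 from 4 (without library 3) to 10 higher and from 2 (without library 2) to 12 lower. Those in the mean ranged from 8 (without library 3) to 14 higher and from 5 (without library 2) to 12 lower. In the comparisons between genotypes and of the change between genotypes, 0 were called by limma.

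Other receptors that signal through ITAM chains stood out on this list by size. Of 7 tested, 5 were called higher in PT and 1 lower in the mean of both genotypes, and 4 or 5 were higher and 1 lower under every alternative run. Clec4n (Dectin-2), a lectin receptor for fungal sugars that signals through Fcer1g, was at 16.5 ± 9.23 TPM in BM WT against 297 ± 96.1 TPM in PT WT, and at 9.13 ± 6.75 TPM in BM Bcl2 and 315 ± 201 TPM in PT Bcl2 (SD, n = 3). Its log2 change was 4.205 in WT (adjusted p = 0.00872), 5.16 in MRP8-Bcl2 (adjusted p = 0.00114) and 4.68 in their mean. Clec4d (MCL) and Clec4e (Mincle), receptors for mycobacterial glycolipid that also use Fcer1g, rose by 3.52 (adjusted p = 0.00218) and 2.05 (adjusted p = 0.00824) in the mean. Clec7a (Dectin-1), the β-glucan receptor, rose by 3.44 (adjusted p = 0.000377), although it carries a signalling motif of its own, and so did Cd300lb, by 1.67 (adjusted p = 0.0427, lost without library 2, 3, 4, 7, 9, 10 or 12), which is best known to pair with Tyrobp. Trem3, also a partner of Tyrobp, fell by 2.35 (adjusted p = 0.00173). Of the ITAM adaptors beside Fcer1g, Tyrobp (DAP12) was at 599 to 2368 TPM in BM and 1164 to 2612 TPM in PT, with a change of 0.56 (adjusted p = 0.306). Hcst (DAP10), which carries no ITAM, was the only 1 of 6 called, lower by 2.68 (adjusted p = 0.0296), and lost that call under every other scaling, with a pseudocount of 0.1, and without library 2, 6, 11 or 12.

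Of the Src, Syk and Tec kinases, 8 were tested and 0 were called in either genotype or in the mean. Syk, which binds the phosphorylated ITAM, was at 59.5 to 106 TPM in BM and 118 to 185 TPM in PT without overlap, with a change of 0.97 (adjusted p = 0.0493) that was under 2-fold. Syk, Lyn, Fgr and Tec were called higher with centring, and Syk, Lyn and Fgr without the long-run genes. Lyn changed by 0.84 (adjusted p = 0.151) and Fgr by 0.68 (adjusted p = 0.174).

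Of 19 tested inhibitors of this signalling, 3 were called higher in WT and 0 lower, 4 higher and 2 lower in MRP8-Bcl2, and 4 higher and 3 lower in the mean of both. With centring or without the long-run genes 0 were lower in the mean, and 1 was without library 2, 3, 4, 8, 10 or 11. With 1 library left out, the higher calls fell to as few as 0 in WT (without library 10) and 1 in MRP8-Bcl2 (without library 3 or 7), and the lower calls in MRP8-Bcl2 ranged from 0 (without library 2, 3 or 8) to 3. Ptpn6 (SHP-1), a phosphatase of ITIM receptors, was at 110 ± 17.6 TPM in BM WT against 819 ± 280 TPM in PT WT, and at 196 ± 42.4 TPM in BM Bcl2 and 804 ± 667 TPM in PT Bcl2 (SD, n = 3). It rose by 2.84 in WT (adjusted p = 0.0139), and the MRP8-Bcl2 rise of 1.71 was also called (adjusted p = 0.0407). The first call was lost with centring and without library 10, and the second without library 1, 2, 3, 5, 7, 8 or 11, while the call in the mean was kept under every alternative. Cd300a, an ITIM receptor of myeloid cells, rose by 2.87 (adjusted p = 0.0152) and 2.55 (adjusted p = 0.00798), and Ptpn22, a phosphatase that acts on Src family kinases, by 2.77 (adjusted p = 0.0294) and 2.11 (adjusted p = 0.0282). In WT both lost the call with centring and without library 4 or 10, Ptpn22 also without library 5, 6, 11 or 12, and in MRP8-Bcl2 Ptpn22 lost it without library 1, 3 or 7. Cd300lf rose by 1.74 in the mean (adjusted p = 0.0167), whereas the ITIM receptor Ceacam1 fell by 1.70 (adjusted p = 0.0118), a call lost with centring and without the long-run genes. Inpp5d (SHIP1), the phosphatase through which FcγRIIB acts, was not called, changing by 0.79 in WT (adjusted p = 0.654) and by −0.46 with the transgene (adjusted p = 0.684).

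Of 32 tested adaptors and effectors, 4 were called higher and 5 lower in the mean of both genotypes, but 9 higher and 1 lower with centring and 9 higher and 0 lower without the long-run genes. Without library 3, 0 were higher, and with 1 library left out 3 (without library 2 or 4) to 7 were lower. Of the calls that follow, those of Plcg2, Rac2 and Vav3 were lost under both, that of Plcg2 also without library 2, 4 or 11, and that of Card9 without the long-run genes. Card9, the adaptor that links Syk to NF-kB, fell by 2.55 (adjusted p = 0.00969), Plcg2 by 1.57 (adjusted p = 0.0231) and Rac2, a subunit of the active NADPH oxidase, by 1.29 (adjusted p = 0.0137). Vav3, an exchange factor for small GTPases, fell by 2.79 in MRP8-Bcl2 (adjusted p = 0.00745) and changed by 0.28 in WT (adjusted p = 0.865). Among 12 tested receptors for Fc parts or related to them, Fcrl5 was the only 1 called, higher by 2.22 in the mean (adjusted p = 0.0426), but not without library 12 or any 1 of libraries 1 to 7. It is best known from B cells. Fcgrt, the neonatal Fc receptor, reached at most 2.99 TPM.

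**Figure D4:**
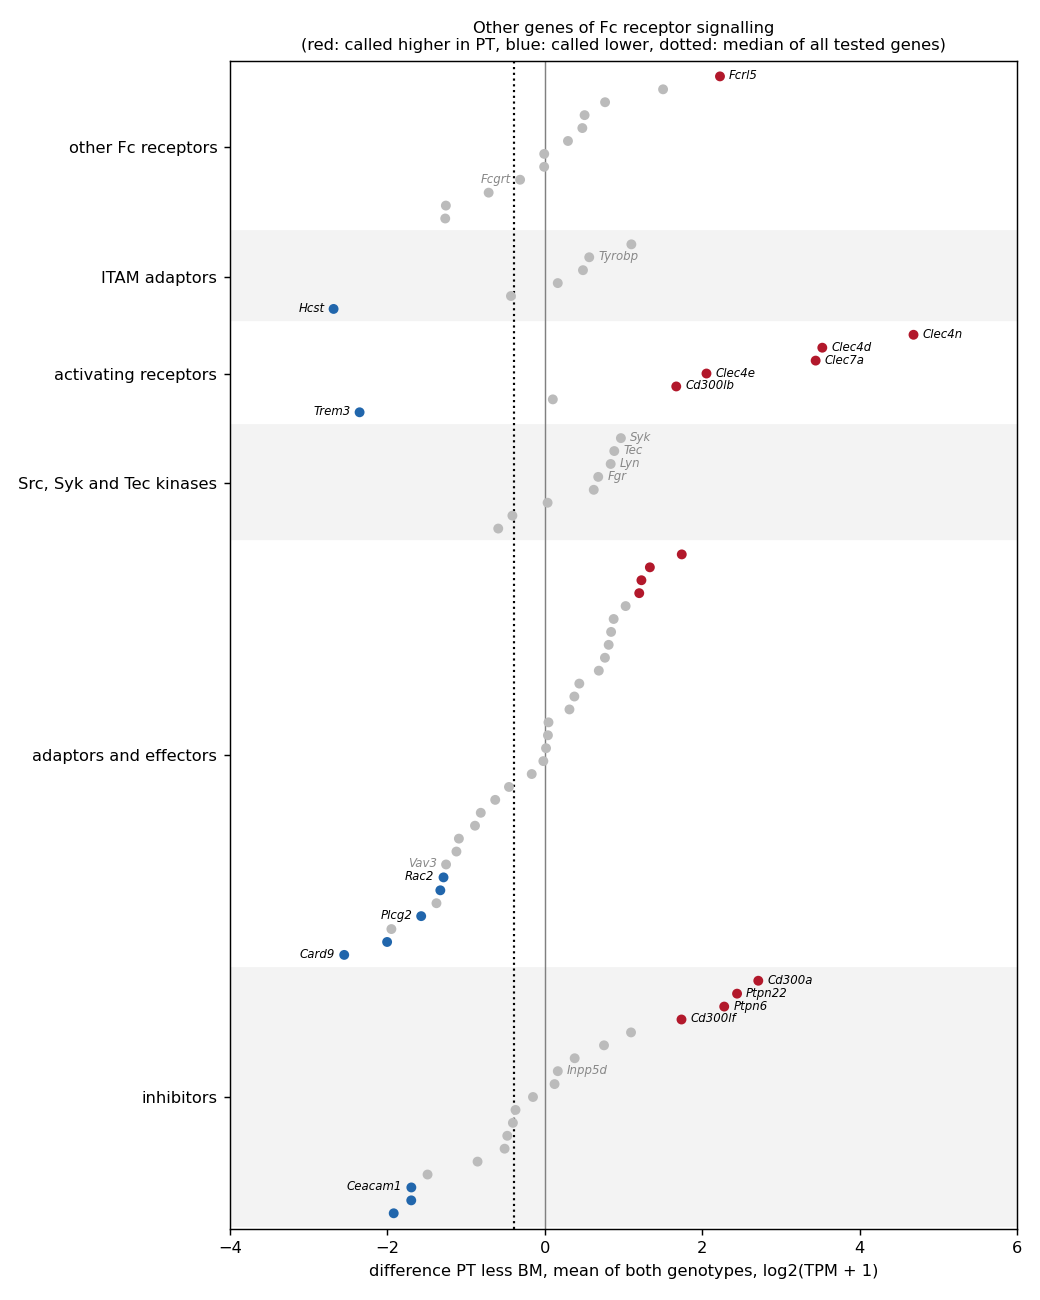
Difference of PT less BM in log2(TPM + 1), as the mean of both genotypes, for the 84 tested genes of Fc receptor signalling, 1 point per gene, grouped by role, with the genes named in the text labelled. Red points were called higher and blue points lower by limma, and the dotted line is the median of all genes at −0.40. Clec4n lies farthest to the right, at 4.68.

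Marker genes of other cells that can carry these receptors were also found. Macrophage markers summed to 14.9 to 129 TPM in WT marrow against 83.5 to 118 TPM in the WT peritoneum, and to 19.03 to 132 TPM against 35.3 to 152 TPM with the transgene. Of 11 tested, 2 were called higher in PT in the mean, Marco by 2.61 (adjusted p = 0.0231) and Vsig4 by 2.17 (adjusted p = 0.0214), the first not without library 3, 5, 10 or 11, and 3 of the 12 were at 0 in 6 or more libraries. Monocyte markers ran against the Fc receptors, with 4 of 6 called lower in PT (2 with centring, or without library 3, 5 or 10) and sums of 456 to 1233 TPM in BM WT against 115 to 133 TPM in PT WT, and of 547 to 2229 TPM against 53.0 to 93.4 TPM with the transgene. NK cell markers summed to at most 13.1 TPM. Mast cell markers, of which 3 of 7 were called higher in PT, summed to 680 TPM in PT WT library 12 and to at most 99.3 TPM elsewhere. Cpa3, not called, reached 481 TPM in that library. The 3 called were Mcpt4, Cma1 and Tpsb2. Fcer1a and Ms4a2, which are also on the list of other Fc receptors, changed by −0.71 and −1.27 in the mean. Neither was called, and they were at 0 in 9 and 6 libraries. Kit changed by 0.10. Of 6 eosinophil markers, Epx and Prg3 were at 0 in all 12 libraries. Siglecf was above 0 in all of them and rose by 1.81 in PT in the mean (adjusted p = 0.0246, lost without library 2, 3, 8, 10 or 11). The 6 summed to 2.06 to 7.87 TPM in BM WT against 22.3 to 34.9 TPM in PT WT, and to 1.63 to 9.63 TPM against 5.84 to 24.7 TPM with the transgene. The part of these cells in the levels of the Fc receptor genes was not tested. Genes of immature neutrophils, such as Mpo and Camp, fell in PT, with 10 of 10 called.

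Within 100 kb of the Fc receptor genes on chromosome 1, 15 other genes were tested, and 0 were called higher in PT. In MRP8-Bcl2 1 of them, Sdhc, was called lower, with a log2 change of −2.36, and in WT and in the mean 0 were. Their median change in the mean was 0.40, against −0.40 over all tested genes. Around Fcgr1 on chromosome 3, 10 were tested and 3 were called lower in the mean, with a median change of −1.60. All 3 (Hist2h2ac, Hist2h3c2 and Hist2h3b) are histone genes, as are most of the 10. The neighbours that are not, Gm20634 and Gm42743, changed by 0.59 and 0.52 and were not called.

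For each gene, the genes most like it were found by the root mean square difference of log2(TPM + 1) over the 12 libraries after each gene was centred on its own mean. Fcgr3 was most like Kctd12 (0.31), Fam21 (0.31) and Dmxl2 (0.31), against a median of 1.42 over all tested genes. Fcer1g was most like Siglece (0.30), an inhibitory lectin of neutrophils, Sft2d2 (0.33) and Slc6a6 (0.33). Fcgr4 was most like Hgsnat (0.31), A830082K12Rik (0.36) and Cnr2 (0.38), Fcgr2b like Ccl28 (0.43), Fnip1 (0.44) and Tnfrsf26 (0.46), and Fcgr1 like Msr1 (0.55), Ppef2 (0.60) and Tmem41a (0.61). Among the 5 genes themselves, Fcgr3 and Fcgr4 were nearest (0.58), while the near copies Fcgr2b and Fcgr3 were at 0.96.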

How the data were processed

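RNA of sorted neutrophils was measured in 12 libraries. The authors amplified cDNA, sequenced it and analysed the reads with AltAnalyze at its defaults, then deposited 1 table of log2(TPM + 1) per gene and library. The genome build, the annotation and the rules for reads that match 2 genes are not given in the sources used here. Columns of the authors' own comparisons (fold changes, p-values, marker scores) were not used, nor were 2 per-sample columns of a table that names no library. Groups follow the column names.

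Genes of at least 1 TPM in at least 3 libraries were tested (13456) with limma 3.58.1 in R 4.3.3 on the deposited log2 values (pseudocount 1), with a trend, in 1 fit of 4 groups with 8 residual degrees of freedom. A fold change on this scale understates the change of low genes. Beside a count of 0 calls, counts at an unadjusted p under 0.05 are given for the 5 genes. The fit was tested on simulated data. Ratios were tested with scipy 1.17.1. Transcripts and places came from GENCODE M21 (GRCm38), promoters from RefSeq.

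Named genes were the 5 genes, the 3 most like each, Syk, Lyn, Fgr, Inpp5d, Ptpn6 and Tyrobp, and the 14 called pathway genes of smallest adjusted p. Cd300lb, Hcst, Fcrl5, Fcgrt, Sdhc, the neighbours of Fcgr1 and single marker genes were named after their values were seen. Some genes under this rule are not reported here. The genes and lists were chosen with earlier results of these data known. Alternatives were another pseudocount (0.1), 2 other filters, 3 other scalings, fits of the groups compared alone or without the trend, and each library left out. Leaving out libraries 7 and 12 was chosen after seeing the data.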

Additional observations from a re-analysis of the deposited data

How the results depend on the processing

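Over 136 results, 2608 of 2912 values under an alternative kept their direction and side of the threshold, or a count within 1.5 times, and most of the others were counts of called genes on the gene lists. The call of Fcgr2b in the mean of both genotypes was kept under every other filter, scaling, pseudocount and fit (adjusted p 0.00735 to 0.0334) and in 11 of 12 fits with 1 library left out. The count of Fc receptor genes called in that mean, 1, became 2 with a filter of 1 TPM in 6 libraries, 2 with median centring and 3 without the long-run genes. The count in MRP8-Bcl2, 0, became 3 with centring and 2 without the long-run genes, and the count in WT became 1 without libraries 7 and 12. With 1 library left out, the counts ranged from 0 to 2 in the mean (2 without library 5, 0 without library 10) and from 0 to 1 in MRP8-Bcl2 (1 without library 9).

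Centring changed the calls of all genes in the mean from 690 higher and 1891 lower to 1752 and 862. It turned the sign of Fcgr1 in MRP8-Bcl2 (0.57), of the difference between genotypes in the change of Fcgr2b (1.37) and Fcgr4 (1.26), and of MRP8-Bcl2 against WT in PT for Fcgr3 (0.82) and Fcgr4 (0.23). Quantile normalization turned the first 3 to 0.29, 0.058 and 0.30. Without libraries 7 and 12, the change of Fcgr4 in MRP8-Bcl2 was −0.34, and the PT difference between genotypes was −0.032 for Fcgr2b, 0.015 for Fcgr3 and −0.14 for Fcer1g. The sum of Fcgr2b and Fcgr3 had the sign opposite to Fcgr3 in the difference between genotypes of the change (−0.10) and in BM between genotypes (0.016), and opposite to Fcgr2b in PT between genotypes (−0.081). The cause was not tested, and none of these values was called.

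With 1 library left out, these changes also turned sign. PT against BM ranged from −0.041 to 1.13 for Fcgr4 and −0.10 to 0.54 for Fcer1g in WT, −0.34 to 0.66 for Fcgr4 in MRP8-Bcl2, and −0.29 to 0.64 for Fcgr1 in the mean. The difference between genotypes in that change ranged from −0.16 to 0.64 for Fcgr3 and −1.01 to 0.17 for Fcgr4. MRP8-Bcl2 against WT ranged from −1.002 to 0.16 for Fcgr4 in BM, and in PT from −0.089 to 0.79 for Fcgr2b and −0.44 to 0.028 for Fcgr3. The ratio of the activating chains to Fcer1g ranged from −0.12 (without library 12) to 0.41. No paired analysis was possible because the deposited columns give no replicate number, although the sample titles share numbers 1 to 3 between groups and the methods take BM and PT from each mouse. TPM keeps no read totals, so a 0 for Fcgr1 has no stated limit.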
